A study of Mus musculus with 6 samples.

Results

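The genes followed here are 38 cell cycle and DNA replication genes, listed by name with earlier results of these data known. All 38 were present among the 17985 genes of the deposited table. They were split by role into 20 replication members and 18 mitosis members. They were read by RNA-seq in iNKT1 cells from mouse thymus, the interferon-producing, T-bet-expressing subset of invariant natural killer T cells, which recognise lipids on CD1d. The Ctrl group had the genotype Tbx21CreTg;Rosa26-LSL-YFP+/+, and the cKO group the genotype Tbx21CreTg;Rosa26-LSL-YFP+/+;Tgfbr2F/F, in which the loxP-flanked gene for TGF-beta receptor chain II is open to deletion by Cre. Both groups thus carried the Cre transgene, driven by the gene for T-bet, and the Cre-dependent yellow fluorescent reporter. All mice were on a C57BL/6 background and untreated, each group had 3 libraries, and ages and the pooling of animals are not given in the sources used here. Nothing in the labels says that the libraries came from separate mice, so p-values measure the spread between these libraries, which may be partly technical.

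Proliferating cells copy their DNA once per cycle. In G1 the origin recognition complex, Cdc6 and Cdt1 load the Mcm2 to Mcm7 ring onto DNA, and at the start of S phase Cdc45 and the GINS complex turn that ring into the moving helicase. Transcription of these genes is driven by E2F factors once cyclin-dependent kinases release them from the retinoblastoma family. Mitotic genes peak later, in G2 and M, under control of B-Myb, FoxM1 and the DREAM complex through CHR elements, and encode the cyclin B kinase, the spindle and its checkpoint. Thymic iNKT cells divide early in their development, and mature iNKT1 cells are largely resting. TGF-beta is known to restrain the division of T cells. In bulk RNA a change in the share of dividing cells and a change in transcript per cell cannot be told apart.

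Because E2F sites and CHR elements are known to set the phase in which these genes are transcribed, the promoters are shown first. RefSeq windows (GRCm38.p6) were found for 30 of the 38 members, not for Gins1, Gins2, Mcm4, Ccne2, Ccna2, Aurkb, Tpx2 and Stmn1, and the 250 bases before each start were searched on both strands. The E2F element was searched as either TTCCCGC or TTGGCGC, or else TTCGCGC or TTGCCGC, and overlapping matches share bases. The sequences below are those of the 3 replication members of highest mean level that hold a match, written 5′ to 3′ on the gene's strand with E2F matches in capitals. They stand at chr1:128359712-128359844 (minus strand, Mcm6), chr8:75109315-75109396 (plus strand, Mcm5) and chr5:138172012-138172078 (minus strand, Mcm7).
Mcm6: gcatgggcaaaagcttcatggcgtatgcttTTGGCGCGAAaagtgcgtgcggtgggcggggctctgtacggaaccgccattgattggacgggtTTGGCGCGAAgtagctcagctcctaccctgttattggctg
Mcm5: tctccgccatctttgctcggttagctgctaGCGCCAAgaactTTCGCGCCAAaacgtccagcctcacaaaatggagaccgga
Mcm7: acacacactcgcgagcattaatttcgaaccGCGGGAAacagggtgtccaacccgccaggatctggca

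The corresponding windows of the 3 most abundant mitosis members with a CHR match, with TTTGAA or TTCGAA or their reverse complements in capitals, stand at chr11:99024190-99024398 (minus strand, Top2a), chr7:135716442-135716525 (minus strand, Mki67) and chr4:118437344-118437391 (minus strand, Cdc20).
Top2a: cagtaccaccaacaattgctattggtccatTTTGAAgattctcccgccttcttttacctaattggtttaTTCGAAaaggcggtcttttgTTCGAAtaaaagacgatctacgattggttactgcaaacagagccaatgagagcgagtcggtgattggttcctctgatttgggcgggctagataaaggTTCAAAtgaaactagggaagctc
Mki67: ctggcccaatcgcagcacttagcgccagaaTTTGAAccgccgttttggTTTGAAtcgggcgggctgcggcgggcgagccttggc
Cdc20: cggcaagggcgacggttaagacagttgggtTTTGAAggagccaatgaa

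An E2F match was present before the start of 7 of 16 replication members with an entry and 3 of 14 mitosis members, against 15.2% of 10379 tested genes with an entry and 9.01% of all 27025 genes with one. A CHR match was present in 8 of 14 mitosis members and 3 of 16 replication members, against 16.1% of tested genes and 19.6% of all genes. CCAAT, the box bound by NF-Y, was present in 13 of 14 mitosis members and 11 of 16 replication members, against 40.8% and 37.5%. All 8 mitosis members with a CHR match also held CCAAT. The Mcm6 window held the letters TTGGCGCGAA in 2 places, where TTGGCGC overlaps the reverse complement of TTCGCGC. These matches describe the letters of the windows, not factor binding in these cells.

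The libraries held between 28832779 and 68092478 reads. Values are in CPM, reads scaled to the library total, and 3 values in a row are those of replicates 1 to 3. Positions of genes are those of the deposited table, on mm10 per the submitters' processing notes. Tgfbr2 was read at between 425 and 461 CPM in the Ctrl libraries and between 257.6 and 289.8 CPM in the cKO libraries, over the whole gene, so no cKO library reached the Ctrl range. Both replicate 3 libraries stood apart from the other 4: they were the deepest, and 4406 (Ctrl) and 4590 (cKO) genes were listed at 0 there against at most 5 elsewhere. No member was at 0 in any library, and the lowest read count of any member was 32. The 9 iNKT1 markers summed to between 7092 and 8468 CPM in Ctrl and between 7589 and 10486 CPM in cKO. Among them Tbx21 ran from 679.8 to 1027, Il2rb from 2357 to 4383 and Ifng, the lowest, from 33.2 to 55.1 CPM, and Klrb1c was at 179.9 CPM in Ctrl replicate 2 against 566 and 703 in the other Ctrl libraries. Xcl1, a chemokine gene, fell from a mean of 181 to 91.5 CPM (limma adjusted p 0.0281), although no iNKT1 marker passed under TMM scaling or edgeR without the block, or when any 1 of the 6 libraries was left out, and Ccl5 had means of 167 and 372 CPM without passing (0.0631). Of 10 markers of double-positive thymocytes, which divide in the thymus, 8 were in the table. Cd4, which iNKT cells can also express, was at 112, 122 and 129 in Ctrl and 144, 194 and 189 CPM in cKO, higher in cKO without overlap, and passed limma with the replicate block (adjusted p 0.0169) but not without it (0.325). The other 7 summed to between 8.61 and 20.4 CPM in Ctrl and between 13.9 and 27.6 CPM in cKO. Rag1 was at 1.07, 1.20 and 0.283 in Ctrl and 2.88, 1.64 and 1.22 CPM in cKO, without overlap of the groups, Cd24a stayed at or below 1.11 CPM and Cd8a at or below 3.85 CPM. That sum was highest in cKO replicate 1, the library with the lowest mitosis sum. Markers of other iNKT subsets, 8 of 10 in the table, summed to between 282 and 349.6 CPM in Ctrl and between 336 and 339 CPM in cKO. Lef1 was the largest part of that sum, between 173 and 228 CPM. Il4 was at 24.6, 37.5 and 44.3 in Ctrl and 14.4, 20.9 and 20.4 CPM in cKO, lower in cKO without overlap. It passed limma with the replicate block (adjusted p 0.00806) but not without it (0.421). Markers of B, myeloid and erythroid cells were in the table for 5 of 11. They summed to between 3.53 and 17.0 CPM in Ctrl and between 2.70 and 17.8 CPM in cKO, lowest in both replicate 3 libraries. Ms4a1, at 7.52, 4.35 and 0.0378 in Ctrl and 9.47, 5.16 and 0.191 CPM in cKO, was lowest there, as were Alas2 and Csf1r. Lyz2 was lowest in replicate 3 only in Ctrl. Cd79a ran otherwise, at 2.11, 2.47 and 2.91 in Ctrl and 1.53, 2.02 and 1.62 CPM in cKO, lower in cKO without overlap. The part of other cells in the values below was not tested.

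All 38 members passed the filter, a mean of 1 CPM or more, and none was called in either direction. The test was limma on log2(CPM + 1) with Benjamini-Hochberg adjustment over 15691 genes and a threshold of 0.05. Of all tested genes 0.663% passed, 0.204% higher and 0.459% lower in cKO. No member had an unadjusted limma p under 0.05, whereas 6.02% of all tested genes did, and the quasi-likelihood test of edgeR, run on recovered reads, also called 0 members, where it called 0.255% of all genes, 0.0701% higher and 0.185% lower. By that test 0 members had an unadjusted p under 0.05, against 5.29% of all genes. With the replicate number as a block, no member passed either, where 2.87% of all genes did, 1.24% higher and 1.64% lower. With the block edgeR also called 0 members, against 2.99% of all genes, 1.43% higher and 1.56% lower. In that blocked limma fit Mcm6, Cdt1 and Aurka had unadjusted p-values of 0.00990, 0.0414 and 0.0360, with 12.6% of all genes under 0.05. The smallest limma adjusted p was 0.843 (Cdt1) without the block and 0.177 (Mcm6) with it. In the authors' deposited table every member had an adjusted p close to 1, with a median log2 fold change of -0.0300 over the replication members and 0.27 over the mitosis members.

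**Figure D1:**
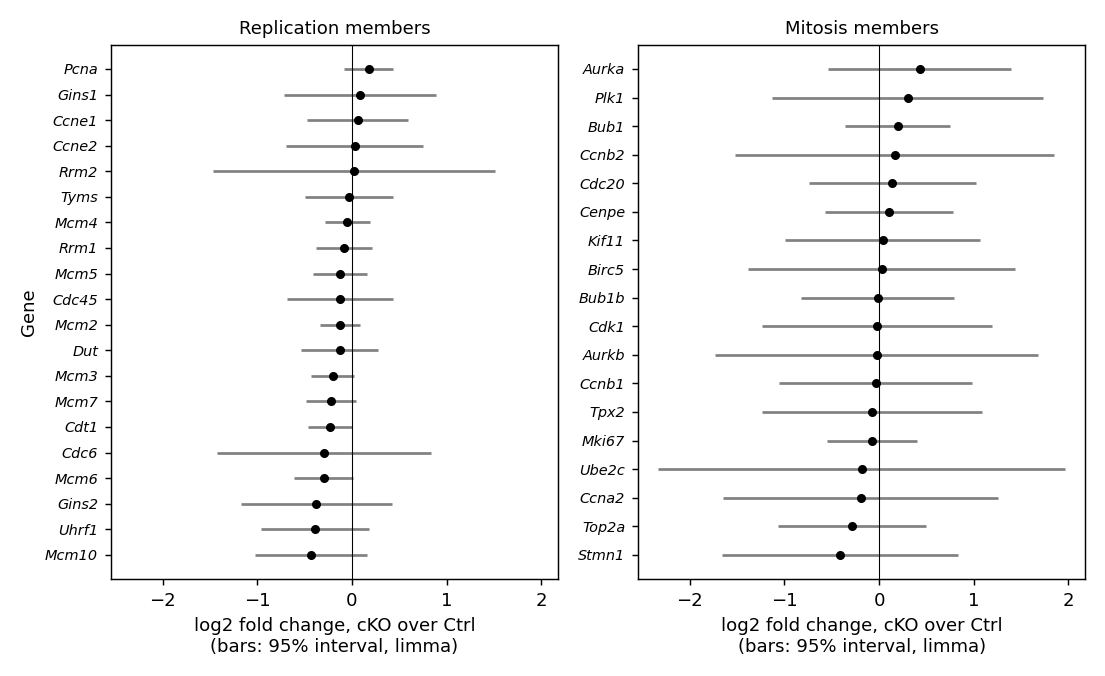
Points give the limma log2 fold change (cKO over Ctrl, on the log2(CPM + 1) scale) of each member and bars its 95% interval over 3 libraries per group. Intervals all include 0, and those of the mitosis members are wider, with a median half-width of 1.09 against 0.44 for the replication members.

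The replication members lay slightly low in cKO over all 6 libraries, which did not hold without cKO replicate 1. The 9 most abundant varied over the libraries by at most 1.55 times, and the others by up to 5.86 times (Rrm2). Their median log2 fold change was -0.13 with 15 of 20 lower, beside a median of -0.0382 over all tested genes, of which 9265 of 15691 were lower. Under TMM scaling, which moved the median of all tested genes to 0.0110, the replication median was -0.0638 with 13 of 20 lower. By edgeR it was -0.0566 with 14 of 20 lower. In limma without cKO replicate 1 it was -0.029 with 11 of 20 lower, above the median of -0.15 over all tested genes. Without cKO replicate 2 it was -0.12, beside -0.097 over all tested genes. Summed over the 20, the level was 1842, 1702 and 1792 CPM in Ctrl replicates 1 to 3 and 1435, 1553 and 1832 CPM in cKO replicates 1 to 3, so that cKO replicates 1 and 2 lay below every Ctrl library and cKO replicate 3 among them. The mean was 1779 ± 70.9 CPM in Ctrl and 1606 ± 204 CPM in cKO (n = 3 libraries each, ± SD). Groups did not overlap for 3 of the 20, all lower in cKO, which is 15%, where 7.1% of all tested genes lay lower without overlap, 3.89% higher and 11% in either direction.

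Among the 6 subunits of the Mcm2 to Mcm7 helicase, Mcm6 (chromosome 1, 128331590 to 128359664, minus strand) was the most abundant. It was read at 388, 389 and 418 in Ctrl and 270.3, 333 and 377 CPM in cKO. Every cKO library lay below every Ctrl library, and the ratio was largest in pair 1. The mean went from 399 ± 17.3 CPM in Ctrl to 327 ± 53.7 CPM in cKO (mean ± SD, n = 3 per group), a log2 fold change of -0.30 with a 95% interval from -0.61 to 0.012 and a limma adjusted p of 0.873. This member came nearest to a call: over 14 other settings its adjusted p ran from 0.163 to near 1. Mcm3 (chromosome 1, 20802968 to 20820312, minus strand) stood at 146, 142 and 139 in Ctrl and 121, 112 and 137 CPM in cKO, again without overlap, although cKO replicate 3 came within 2 CPM of Ctrl replicate 3. Its log2 fold change was -0.20 with a 95% interval from -0.44 to 0.027 and a limma adjusted p of 0.959. Mcm7 was read at 175, 146 and 152 in Ctrl and 128, 127 and 151 CPM in cKO, lower in cKO in each pair but with overlapping groups. Part of the Mcm7 gene, 12.6% of its exon bases in GENCODE M21, is shared with other genes, mainly Ap4m1 on the opposite strand.

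The other 3 subunits did not keep a direction over the pairs. Mcm2 (chromosome 6, 88883475 to 88898780, minus strand) stood at 255, 244 and 217 in Ctrl and 213, 219 and 222 CPM in cKO. Mcm4 was read at 214, 187 and 173 in Ctrl and 186, 178 and 189 CPM in cKO, and Mcm5 at 180.3, 167 and 177 in Ctrl and 147, 147 and 191 CPM in cKO. In each of these the cKO library was lower in pairs 1 and 2 and higher in pair 3, and the fold change of Mcm4 turned from -0.048 to 0.017 under TMM scaling. Their intervals ran from -0.34 to 0.082 for Mcm2, -0.28 to 0.19 for Mcm4 and -0.41 to 0.16 for Mcm5, each narrower than 1 on the log2 scale in both directions. Per kilobase of the GENCODE M21 transcript with the longest coding sequence, the Ctrl level of Mcm6 was 137 ± 5.93 CPM per kilobase, that of Mcm2 70.8 ± 5.82 CPM per kilobase, and those of Mcm4, Mcm7, Mcm5 and Mcm3 lay between 46.9 and 53.3. By this measure Mcm6 stood apart from the other ring subunits by more than the spread over libraries, while Mcm4, Mcm7 and Mcm5 lay within it. The order depends on the length used. By the gene lengths of the deposited table, Mcm6 stood at 47.9 CPM per kilobase in Ctrl. That is below Mcm2 at 70.8, Mcm4 at 53.3 and Mcm5 at 51.1, and above Mcm3 at 16.4 and Mcm7 at 14.8.

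Per kilobase of the same transcripts in Ctrl, the factors that load and start the helicase had lower means than the ring subunits. They ran from 1.99 (Mcm10) to 41.8 CPM per kilobase (Cdt1). By the gene lengths of the deposited table, Cdt1 lay above Mcm7 and Mcm3. Cdt1 (chromosome 8, 122568015 to 122573128, plus strand), the loading factor that geminin inhibits, stood at 99.9, 82.2 and 92.3 in Ctrl and 78.2, 78.4 and 76.5 CPM in cKO. All cKO libraries lay within 2 CPM of each other and below every Ctrl library, with means going from 91.5 ± 8.89 CPM in Ctrl to 77.7 ± 1.04 CPM in cKO (mean ± SD, n = 3 per group) and a log2 fold change of -0.23 with a 95% interval from -0.46 to 0.0018 and a limma adjusted p of 0.843. Cdc6, its partner ATPase, was read at 8.30, 8.71 and 16.1 in Ctrl and 3.88, 9.33 and 15.5 CPM in cKO, highest in both replicate 3 libraries. Cdc45 was read at 10.5, 11.5 and 12.03 in Ctrl and 7.66, 9.92 and 14.3 CPM in cKO, low in cKO replicate 1 and high in cKO replicate 3. Mcm10, which helps activate the helicase, was read at 11.2, 8.19 and 9.63 in Ctrl and 5.24, 6.71 and 9.09 CPM in cKO, lower in cKO in each pair with overlapping groups.

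Of the GINS subunits, Gins1 was read at 3.72, 2.63 and 4.29 in Ctrl and 3.57, 3.00 and 4.92 CPM in cKO and Gins2 at 9.10, 5.91 and 11.0 in Ctrl and 5.24, 4.78 and 9.63 CPM in cKO. Gins2 was lower in cKO in each pair, but 67.3% of its exon bases in GENCODE M21 are overlapped by Gse1 on the opposite strand. Strand-specific counting is not stated, so its value is uncertain. Gins1 had ratios from -0.045 to 0.16 on the log2 scale.

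Pcna (chromosome 2, 132249162 to 132253314, minus strand), the sliding clamp of the replication fork, was the replication member that lay higher in cKO in each pair. It was read at 87.6, 79.9 and 91.3 in Ctrl and 93.4, 89.8 and 110.5 CPM in cKO, and Ctrl replicate 3 overlapped with cKO. Its mean went from 86.3 ± 5.81 CPM in Ctrl to 97.9 ± 11.0 CPM in cKO (mean ± SD, n = 3 per group), a log2 fold change of 0.18 with a 95% interval from -0.085 to 0.44. In all tested genes, 11.5% were higher and 18.5% lower in cKO in each of the 3 pairs. Of the replication members 1 was higher and 6 were lower in each pair: Mcm3, Mcm6, Mcm7, Mcm10, Cdt1 and Gins2.

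Genes that supply nucleotides differed in how far they spread. Rrm1, the large subunit of ribonucleotide reductase, was read at 92.3, 87.9 and 87.0 in Ctrl and 70.4, 90.2 and 93.2 CPM in cKO, flat but for cKO replicate 1. Rrm2, the small subunit, whose level is tied to S phase, was read at 28.5, 24.7 and 58.0 in Ctrl and 14.2, 35.6 and 83.2 CPM in cKO. It was the replication member of widest range, low in cKO replicate 1, high in both replicate 3 libraries, and its interval ran from -1.47 to 1.51. Tyms, which makes thymidylate, was read at 26.1, 18.1 and 23.2 in Ctrl and 18.8, 20.3 and 27.1 CPM in cKO, and Dut, which removes dUTP, at 45.5, 42.7 and 49.6 in Ctrl and 35.1, 38.6 and 53.9 CPM in cKO. Tyms was lowest in Ctrl replicate 2 and Dut in cKO replicate 1, and both were highest in cKO replicate 3.

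Uhrf1, which recruits the maintenance DNA methyltransferase to newly copied DNA, was read at 44.5, 39.8 and 43.1 in Ctrl and 21.9, 34.1 and 44.1 CPM in cKO. Only cKO replicates 1 and 2 lay below the Ctrl range. The cyclins of the G1 to S step were at low levels: Ccne1 was read at 12.7, 9.26 and 11.3 in Ctrl and 9.85, 10.1 and 15.3 CPM in cKO, and Ccne2 at 4.55, 4.55 and 6.19 in Ctrl and 3.64, 5.31 and 7.02 CPM in cKO. Both E cyclins were lower in cKO in pair 1 and higher in pairs 2 and 3. Of the exon bases of Ccne2 in GENCODE M21, 17.4% are overlapped by Ints8 on the opposite strand.

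**Figure D2:**
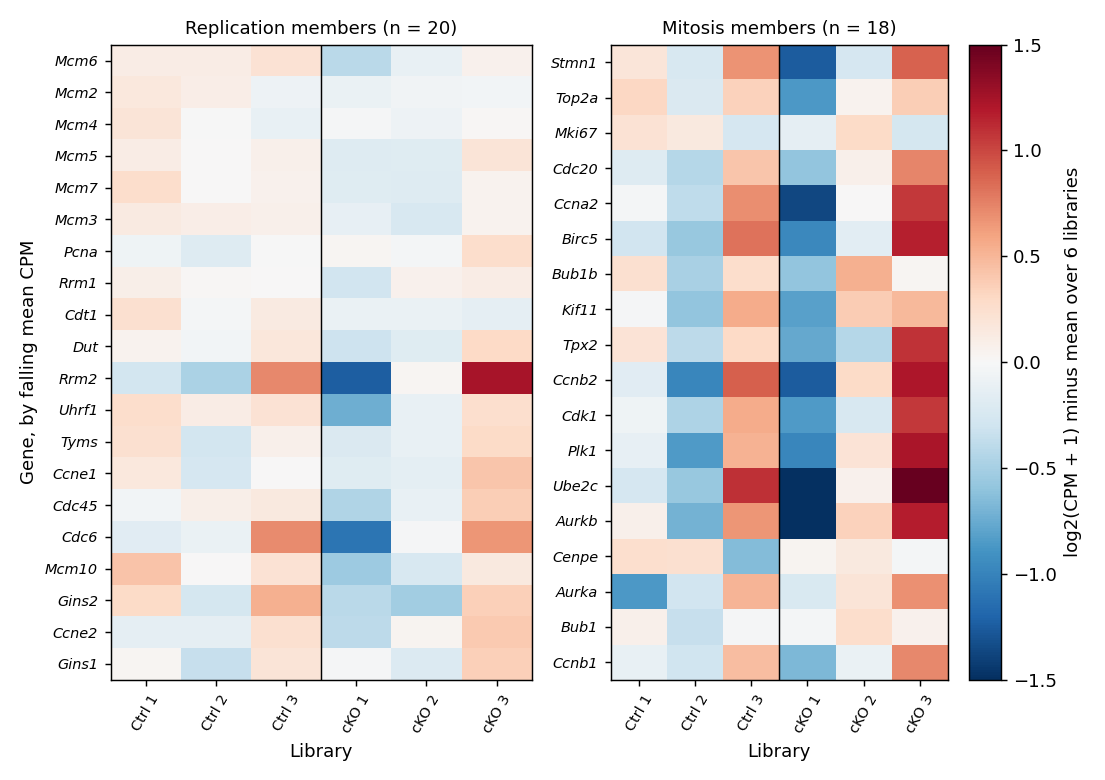
Colour gives log2(CPM + 1) of each member in each library minus its mean over the 6 libraries, with colours limited to 1.5 in either direction, and genes stand in order of falling mean CPM. Most mitosis members are low in cKO replicate 1 and high in both replicate 3 libraries, while the most abundant replication members are pale throughout.

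The mitosis members split by library and not by group. Summed over the 18, the level was 274, 205 and 371 CPM in Ctrl replicates 1 to 3 and 144, 276 and 453 CPM in cKO replicates 1 to 3. The lowest and the highest library were both cKO. The mean was 283 ± 83.7 CPM in Ctrl and 291 ± 155 CPM in cKO (n = 3 libraries each, ± SD), and the median log2 fold change was -0.0171, with 8 of 18 higher. Under TMM scaling that median was 0.0453 with 12 of 18 higher. By edgeR on the recovered reads it was 0.23 with 15 of 18 higher, beside a median of 0.00209 over all tested genes, and with the replicate block in edgeR 0.0555 with 12 of 18 higher. For none of the 18 did the groups stay apart, where 11% of all tested genes did. Of the 18, 14 were lowest in cKO replicate 1 and 13 were highest in cKO replicate 3.

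The mitotic cyclins and their kinase followed this order. Ccnb2, a B-type cyclin (chromosome 9, 70407689 to 70421554, minus strand), stood at 9.01, 4.71 and 20.0 in Ctrl and 3.75, 12.7 and 25.01 CPM in cKO. Its partner kinase Cdk1 was read at 10.3, 7.64 and 16.6 in Ctrl and 5.62, 9.09 and 23.8 CPM in cKO, and Ccnb1, the other B-type cyclin, at 4.40, 3.77 and 7.06 in Ctrl and 2.67, 4.45 and 8.62 CPM in cKO. Ccna2, which acts in S phase and G2, was read at 13.4, 10.3 and 22.8 in Ctrl and 4.68, 13.8 and 29.7 CPM in cKO. In all 4, cKO was lower in pair 1 and higher in pairs 2 and 3, so the direction turned with the pair. In Ccnb2 the ratio ran from -1.08 to 1.26 on the log2 scale, and the interval of its fold change ran from -1.52 to 1.85. Of the exon bases of Ccna2 in GENCODE M21, 12.5% are overlapped by Exosc9 on the opposite strand.

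The mitotic kinases other than Cdk1 included the only mitosis member higher in cKO in each pair. Aurka (chromosome 2, 172356190 to 172370535, minus strand), the kinase of the spindle poles, stood at 3.95, 6.34 and 11.8 in Ctrl and 6.66, 9.26 and 13.4 CPM in cKO. Its ratios were 0.63, 0.48 and 0.17 in pairs 1 to 3, the groups overlapped, and its log2 fold change was 0.43 with a 95% interval from -0.54 to 1.39. Aurkb, the kinase of the chromosomal passenger complex, was read at 8.12, 4.29 and 12.7 in Ctrl and 1.94, 9.97 and 18.6 CPM in cKO, and Plk1, which acts in mitotic entry and division, at 8.21, 4.58 and 13.4 in Ctrl and 4.09, 10.6 and 22.5 CPM in cKO. Both lay lowest in cKO replicate 1 and highest in cKO replicate 3. Birc5, survivin, which binds Aurkb in that complex, was read at 10.6, 8.58 and 23.9 in Ctrl and 6.28, 11.7 and 30.7 CPM in cKO.

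The spindle checkpoint and the ubiquitin ligase it restrains differed in spread. Bub1 was read at 6.54, 4.61 and 6.04 in Ctrl and 6.00, 7.57 and 6.48 CPM in cKO and was among the flattest of the 18. It lay highest in cKO replicate 2, and its log2 fold change was 0.20 with a 95% interval from -0.36 to 0.75. Bub1b, which encodes BubR1, was read at 17.0, 9.88 and 17.3 in Ctrl and 9.12, 21.01 and 14.6 CPM in cKO, with its highest value also in cKO replicate 2. Cdc20 (chromosome 4, 118432901 to 118437352, minus strand), the activator of the anaphase-promoting complex, stood at 15.1, 12.7 and 23.6 in Ctrl and 11.2, 18.4 and 29.7 CPM in cKO. Ube2c, the ubiquitin-conjugating enzyme of that complex, was read at 5.86, 4.48 and 16.3 in Ctrl and 1.11, 7.52 and 23.7 CPM in cKO. It had the widest range of all 38 members, 21.4 times from the lowest to the highest library, and 32 reads in cKO replicate 1. Of its exon bases, 22.8% are overlapped by Tnnc2 on the opposite strand.

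Of the spindle motors and their partners, Cenpe stood apart. Kif11, the kinesin that pushes spindle poles apart, was read at 12.8, 8.29 and 19.6 in Ctrl and 6.97, 17.3 and 18.7 CPM in cKO, and Tpx2, which activates Aurka on the spindle, at 13.6, 8.58 and 14.5 in Ctrl and 6.42, 8.40 and 25.7 CPM in cKO. Both were low in cKO replicate 1. Cenpe, the kinesin of the kinetochore, was read at 10.4, 10.3 and 5.12 in Ctrl and 8.84, 9.59 and 8.40 CPM in cKO. It was lowest in Ctrl replicate 3, where most mitosis members were high.

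The markers used most often to stain or sort dividing cells did not rank the libraries alike. Mki67 (chromosome 7, 135689788 to 135716379, minus strand), which encodes Ki-67, stood at 26.2, 24.9 and 18.7 in Ctrl and 20.3, 27.6 and 18.5 CPM in cKO. It was low in both replicate 3 libraries, and its mean went from 23.2 ± 4.02 CPM in Ctrl to 22.1 ± 4.85 CPM in cKO (mean ± SD, n = 3 per group), a log2 fold change of -0.073 with a 95% interval from -0.55 to 0.40. Top2a (chromosome 11, 98992943 to 99024189, minus strand), the topoisomerase that untangles replicated DNA, stood at 44.4, 30.5 and 45.3 in Ctrl and 19.1, 37.1 and 46.3 CPM in cKO. Stmn1, stathmin, a microtubule regulator and the mitosis member of highest level, was read at 53.7, 40.1 and 76.6 in Ctrl and 19.3, 39.6 and 88.5 CPM in cKO. In Top2a and Stmn1 cKO replicate 1 was below every other library, and the interval of the fold change ran from -1.07 to 0.49 for Top2a and from -1.66 to 0.84 for Stmn1.

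**Figure D3:**
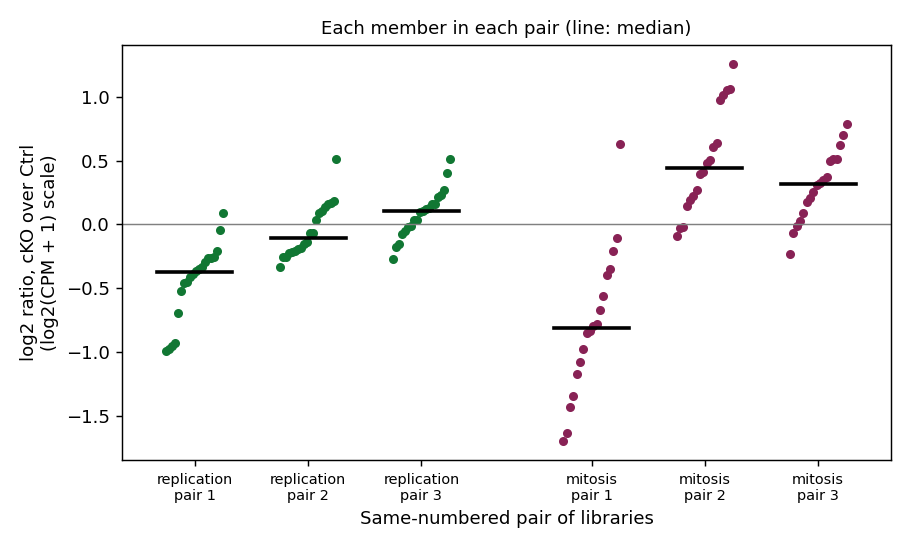
Each point is the log2 ratio of cKO over Ctrl (log2(CPM + 1) scale) of 1 member in 1 same-numbered pair of libraries, and lines are medians. Medians are -0.38, -0.10 and 0.10 in pairs 1 to 3 for the replication members and -0.81, 0.45 and 0.32 for the mitosis members.

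Taken pair by pair, most mitosis members lay on the same side, which differed between pairs. Pairs follow the replicate numbers, and the values do not settle which libraries of replicates 1 and 2 belong together. In pair 1, 17 of 18 were lower in cKO, and in pairs 2 and 3, 15 of 18 were higher in each. Of all tested genes 52.4%, 42.4% and 33.7% were higher in pairs 1 to 3, with medians of 0.0136, -0.0452 and 0. Of the replication members, 1, 8 and 13 of 20 were higher. In replicates 1 and 2 alone, without the replicate 3 libraries that stood apart, the median was -0.23 for the replication members with 18 of 20 lower. For the mitosis members it was -0.14 with 11 of 18 lower. Over all tested genes in those replicates the median was -0.0200, with 8511 of 15691 lower. No member passed limma there, where 1.85% of all genes did, 0.797% higher and 1.06% lower, and 7 replication members, all lower, and 0 mitosis members had an unadjusted p under 0.05, against 9.39% of all genes. Leaving out cKO replicate 1 turned the mitosis median to 0.42 with 17 of 18 higher. Leaving out cKO replicate 3 turned it to -0.40 with 14 of 18 lower, with no member past the threshold in either. The median over all tested genes was -0.15 and 0.076 in those fits, with 4722 and 9473 of 15691 higher.

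**Figure D4:**
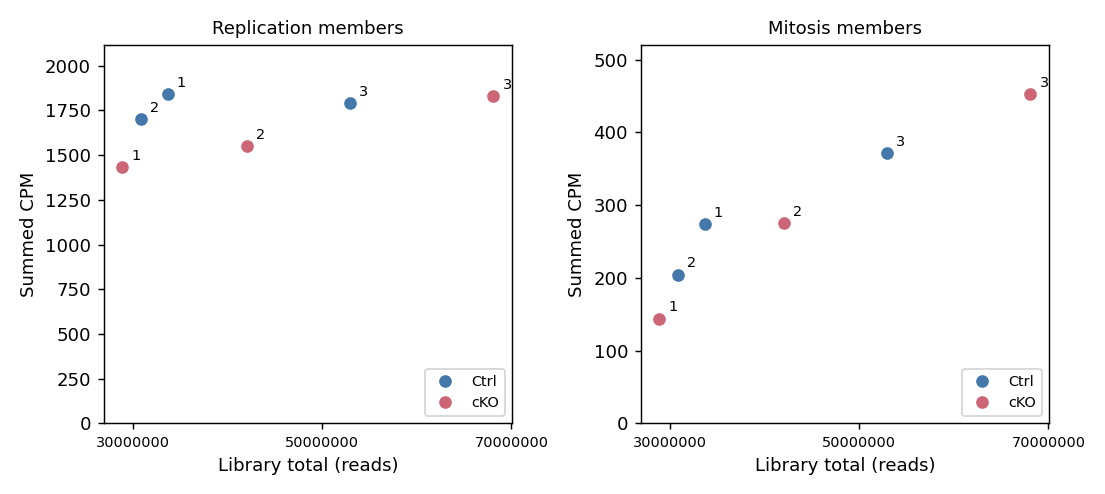
Summed CPM of the replication and the mitosis members (vertical axis from 0) is plotted against the library total in reads, coloured by group and labelled by replicate number. The mitosis sum rises from 144 to 453 CPM in the order of library totals, and the replication sum does not follow that order.

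The order of the mitosis sums was the order of library depth. From the shallowest to the deepest library, cKO replicate 1, Ctrl replicate 2, Ctrl replicate 1, cKO replicate 2, Ctrl replicate 3 and cKO replicate 3, the sum was 144, 205, 274, 276, 371 and 453 CPM, although CPM is already per library total. It held within replicates 1 and 2 as well. For 8 of the 18 mitosis members, Ccna2, Ccnb1, Ccnb2, Cdc20, Plk1, Aurkb, Birc5 and Ube2c, and for Rrm2 among the replication members, all 6 libraries stood in exactly this order, which was so for 0.497% of all tested genes. The median Spearman correlation of a member's CPM with library total over the 6 libraries was 0.943 for the mitosis members, 0.6 for the replication members and -0.464 for all tested genes. These are descriptions over 6 libraries in which depth, replicate 3 and the other features of a library go together, and the part of depth in the levels was not tested. Among the mitosis members, Mki67 and Cenpe ran the other way, at -0.429 and -0.543. Theirs are the longest transcripts among the 38 by the measure used above, at 10061 and 7910 bases. Top2a and Kif11, next in length among the mitosis members at 5221 and 4819 bases, both stood at 0.943. A part of transcript length was not tested.

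The mitosis members also spread more over the libraries than the genes set beside them here, which were only roughly matched in level. The highest library exceeded the lowest by a median of 3.70 times over the 18 mitosis members and 1.93 times over the 11 replication members whose means did not exceed the highest mitosis mean. Over 5212 other tested genes within the mitosis range of means and above 0 in every library it was 1.58 times. The median level of those 5212 genes was 21.7 CPM, against 12.7 CPM for the mitosis members and 11.0 CPM for the 11 replication members. Of the 38 intervals of the fold change, 16 of the 20 replication and 4 of the 18 mitosis members excluded a change of 1 on the log2 scale in either direction. With the replicate block these counts were 20 of 20 and 13 of 18. Changes within a member's interval were not excluded.

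Further genes of the cycle were taken from lists by function. None of 36 other replication genes, 42 other mitosis genes and 29 tested regulators of G1 and cell cycle exit passed limma, with 2, 0 and 5 of them at an unadjusted p under 0.05, where 6.02% of all tested genes were. By edgeR's quasi-likelihood test 0 passed, with 1, 0 and 3 at an unadjusted p under 0.05, against 5.29% of all. Medians were -0.14, -0.0120 and 0.00836 on the log2 scale. The other mitosis genes summed to 690, 596 and 803 CPM in Ctrl replicates 1 to 3 and 549.7, 691 and 905 CPM in cKO replicates 1 to 3, in the same order of libraries as the mitosis members. Foxm1, the transcription factor of mitotic genes, was read at 9.57, 12.5 and 18.3 in Ctrl and 4.92, 14.4 and 21.2 CPM in cKO and was also lowest in cKO replicate 1 and highest in cKO replicate 3. The 2 replication genes were Timeless, of the fork protection complex, read at 44.5, 48.7 and 34.4 in Ctrl and 29.2, 34.2 and 26.8 CPM in cKO, and Pold2, a subunit of DNA polymerase delta, read at 101, 98.6 and 108 in Ctrl and 89.9, 80.2 and 89.3 CPM in cKO. In both the groups did not overlap, with cKO lower, as for 7.1% of all tested genes.

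Among the regulators, Btg1, an antiproliferative factor of resting lymphocytes, was read at 769, 749 and 876 in Ctrl and 562, 534 and 693 CPM in cKO. Every cKO library lay below every Ctrl library, and the log2 fold change was -0.43 with a 95% interval from -0.72 to -0.13 and a limma adjusted p of 0.442. With the replicate block Btg1 passed limma (adjusted p 0.0143), as it did in replicates 1 and 2 alone (0.0106). It did not pass in the other fits with that block, edgeR (0.0655) and limma after TMM scaling (0.0535), and over all 14 other settings its adjusted p ran from 0.0106 to near 1. Tob1, of the same family, was read at 47.7, 55.5 and 51.9 in Ctrl and 72.8, 61.5 and 66.5 CPM in cKO, so that the cKO libraries lay above every Ctrl library. Rbl2, which encodes the retinoblastoma relative p130 of the DREAM complex, was read at 339.8, 377 and 310.0 in Ctrl and 387, 489 and 452 CPM in cKO, also higher without overlap. Its log2 fold change was 0.37 with a 95% interval from 0.082 to 0.65 and a limma adjusted p of 0.567.

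Cdk2, the partner of cyclins E and A, was read at 44.6, 45.3 and 55.4 in Ctrl and 59.1, 69.4 and 65.7 CPM in cKO, higher in cKO without overlap. It passed only with the block and TMM scaling together (limma adjusted p 0.0440), a combination chosen after the data were seen, and over 14 other settings its adjusted p ran from 0.0440 to near 1. Myc was read at 344, 294 and 350.3 in Ctrl and 220.2, 229 and 296 CPM in cKO, lower in cKO in each pair, and passed in replicates 1 and 2 alone (limma adjusted p 0.0297), with values up to near 1 over 14 other settings.

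The remaining regulators named here did not pass. Ccnd2 and Ccnd3, the D-type cyclins found in the table, were read at between 874 and 1366 CPM and between 779 and 965 CPM over the 6 libraries. Their kinases Cdk4 and Cdk6 ran from 244 to 325 and from 4.96 to 8.38 CPM. The kinase inhibitor genes Cdkn1b and Cdkn1a ran from 31.2 to 36.0 and from 0.831 to 2.08 CPM. The activator genes E2f1 and E2f2 ran from 8.25 to 19.8 and from 1.98 to 10.9 CPM, both lowest in cKO replicate 1.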

How the data were processed

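RNA-seq of thymic iNKT1 cells was deposited as 1 table of 17985 genes for 6 libraries. Reads were of 75 bases, per the labels, and were handled with Trimmomatic 0.33, STAR 2.5.2, HTSeq 0.6.1 and edgeR on mm10, per the submitters' processing notes; the annotation release and strand setting are not given in the sources used here. The headers name no unit for the deposited values of the libraries, which were read as the authors' CPM from the values themselves. Values of the authors' own comparison follow per gene: their log2 fold change and mean level on a log2 scale, the score of a likelihood-ratio test (LR), and its p-value before and after adjustment, per the file headers. The columns name WT and KO, taken as Ctrl and cKO. Each CPM column consisted of whole multiples of 1 read, so reads were recovered (100% of values within 0.01 of a whole read).

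limma 3.58.1 was run on log2(CPM + 1) of genes averaging 1 CPM or more, fitting group alone, with its trend and robust options; fold changes on that scale understate those of low genes. The recovered reads were also tested with edgeR 4.0.16. Both fits were tested on simulated data with the same scatter setting for all genes and no replicate structure. That test does not cover the spread between these libraries. The precision is set by 3 libraries per group: with 1 read worth between 0.0147 and 0.0347 CPM, counting error is small, and no molecular identifiers are stated, so this covers counting error only.

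The replicate numbers were checked for pairing: deviations of same-numbered libraries from their group means correlated at 0.855, 0.687 and 0.924 over tested genes. Across numbers, Ctrl replicate 1 correlated with cKO replicate 2 at 0.578. Ctrl replicate 2 correlated with cKO replicate 1 at 0.718, above its 0.687 with cKO replicate 2. Replicate 3 libraries correlated negatively with those of other numbers, from -0.886 to -0.698. The values thus set replicate 3 apart but do not settle the pairing within replicates 1 and 2. The numbers were nevertheless used as pairs and as the block.

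The members and gene lists were chosen with earlier results of these data known. All members are named. Values in every library were to be given for Mki67, Top2a, Pcna and Mcm2, for the 4 members of highest mean and the 3 of smallest unadjusted p among replication and among mitosis genes, and they are given for the others too. Of the further lists, up to 6 genes with an unadjusted p under 0.05 and 10 set regulators are named. Alternatives were the replicate block, TMM scaling, a pseudocount of 0.1, no filter, edgeR with and without the block, replicates 1 and 2 alone and leaving out each library.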

Additional observations from a re-analysis of the deposited data

How the results depend on the processing

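No member passed under any of 14 other settings (532 combinations of member and setting), where the smallest adjusted p was 0.163, that of Mcm6 in replicates 1 and 2 alone; the cause of the shifts below was not tested. The number of genes called was 104, against 451 with the replicate block, 40 under edgeR's quasi-likelihood test, 469 under that test with the replicate block, 291 in replicates 1 and 2 alone, 514 under TMM scaling with the replicate block (chosen after the data were seen) and from 14 to 85 without 1 library. The higher calls were 32 of 104 without the block, 194 of 451 with it and 265 of 514 with TMM scaling and the block. The replicate block changed no call of a member. Among the other genes named it added Btg1 and the markers Cd4, Il2rb, Ccl5 and Il4. Over the fits without 1 library the replication median ran from -0.27 to -0.029 and the mitosis median from -0.40 to 0.42. The median over all tested genes also moved in these fits, from -0.15 to 0.076. Of the 38 members, 13 kept their sign under all 14 settings: Mcm2, Mcm3, Mcm5, Mcm6, Mcm7, Mcm10, Cdt1, Gins2, Dut and Uhrf1 lower, and Pcna, Aurka and Bub1 higher. Log2 fold changes that turned sign were, with TMM scaling, and identically when the replicate block was added, 0.017 (Mcm4), 0.036 (Tyms), 0.022 (Ccnb1), 0.044 (Cdk1), 0.044 (Aurkb) and 0.046 (Bub1b). Under edgeR's quasi-likelihood test they were 0.031 (Tyms), 0.14 (Ccna2), 0.12 (Ccnb1), 0.24 (Cdk1), 0.37 (Aurkb), 0.072 (Bub1b), 0.23 (Tpx2), 0.38 (Ube2c) and 0.083 (Foxm1). Under that test with the replicate block they were 0.020 (Tyms), 0.0018 (Ccnb1), 0.036 (Cdk1), 0.075 (Aurkb) and 0.024 (Bub1b). In replicates 1 and 2 alone they were -0.22 (Rrm2), -0.11 (Ccne1), -0.037 (Ccne2), 0.092 (Bub1b), -0.13 (Birc5) and -0.15 (Cenpe). Without 1 library at a time, ranges that cross 0 were -0.12 to 0.036 (Mcm4), -0.59 to 0.65 (Rrm2), -0.18 to 0.084 (Tyms), -0.16 to 0.23 (Ccne2), -0.24 to 0.041 (Mki67), -0.62 to 0.75 (Aurkb), -0.28 to 0.28 (Bub1b), -0.55 to 0.52 (Birc5), -0.63 to 0.29 (Tpx2), -0.0057 to 0.25 (Ccnd2), -0.071 to 0.21 (Gins1), -0.13 to 0.16 (Ccne1), -0.40 to 0.83 (Ccnb2), -0.19 to 0.47 (Cdc20), -0.23 to 0.87 (Plk1), -0.25 to 0.45 (Kif11), -0.78 to 0.44 (Ccna2), -0.41 to 0.29 (Ccnb1), -0.55 to 0.40 (Cdk1), -0.19 to 0.26 (Cenpe), -1.03 to 0.74 (Ube2c), -0.55 to 0.40 (Foxm1), -0.34 to 0.066 (Cdc45), -0.70 to 0.18 (Cdc6), -0.16 to 0.042 (Rrm1), -0.55 to 0.068 (Top2a), -0.96 to 0.11 (Stmn1) and -0.75 to 0.25 (E2f2). A pseudocount of 0.1 or no filter on low values turned no sign and changed no call of a member.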

Other observations

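Levels per kilobase of those transcripts, in Ctrl, set Mcm6 apart at the high end of the list but no member at the low end. As above, the order depends on the length used. Below Mcm6 and Mcm2, Pcna at 56.8 ± 3.83 CPM per kilobase (SD, n = 3) and Stmn1 at 53.6 ± 17.4 did not differ beyond their spread. Mki67, the gene of the Ki-67 protein, stood at 2.31 ± 0.400 CPM per kilobase, and Cenpe had the lowest mean of all 38 at 1.09 ± 0.381, within the spread of Bub1 at 1.68 ± 0.292. Rrm2 and Rrm1, which encode the subunits of 1 enzyme, stood at 16.9 ± 8.32 and 22.3 ± 0.712.

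Over the 38 members, log2 deviations from the group mean correlated between same-numbered libraries at 0.502, -0.172 and 0.861 in replicates 1 to 3, as a description over genes that share libraries. Over all tested genes the same-numbered values were 0.855, 0.687 and 0.924. Across numbers, over the members, Ctrl replicate 2 correlated with cKO replicate 1 at 0.815 and Ctrl replicate 1 with cKO replicate 2 at 0.0444. The directions of pairs 1 and 2 thus rest on a pairing that the values of the members do not settle. Mitosis members with a positive log2 fold change numbered 15 of 18 in the authors' deposited table and 8 of 18 on the log2(CPM + 1) scale, and no member passed in either.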
